A study of Mus musculus with 7 samples.

Results

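The circadian clock genes described here are Per1, Per2, Per3, Cry1, Cry2, Arntl, Clock, Nr1d1, Nr1d2 and Dbp, 10 of the 21899 genes in the islet count files. They were chosen by name, and their Ensembl identifiers were matched to symbols in GENCODE M21. Pancreatic islets, the endocrine cell clusters that hold the insulin-secreting β-cells, came from second-generation (F2) male mice. Their founder dams were C57BL/6J females injected under the skin in late pregnancy with dihydrotestosterone (androgen exposure, AE) or with the benzyl benzoate and corn oil vehicle alone (control), and the F1 males born to them were mated with unrelated wild-type females. All F2 males of both groups thus descend from an injected dam through the paternal line and received no hormone themselves. The labels give 3 control and 4 hyperandrogenism samples, named control-F2 and AE-F2 here. Replicate 1 of control-F2 and replicate 4 of AE-F2 supplied the values below, 1 library each, and the other 5 samples were not analysed here. The sources used here state neither the age of the mice behind these libraries, nor whether animals were pooled, nor the hour at which the islets were collected. The methods describe collagenase digestion, hand picking and culture medium for isolated islets.

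The mammalian clock is a feedback loop of transcription. ARNTL (also called BMAL1) and CLOCK bind E-box sequences and activate the Per, Cry, Nr1d and Dbp genes, PER and CRY proteins inhibit ARNTL and CLOCK, and the nuclear receptors NR1D1 and NR1D2 (REV-ERBs) repress Arntl in competition with the ROR activators. In peripheral tissues of mice kept in light and dark, the transcripts of the Nr1d genes, Dbp and the Per genes are known to peak in the light phase or early in the dark phase, Arntl around dawn in near antiphase to them, and Cry1 late in the dark phase, whereas Clock transcript varies little. The β-cell clock is known for its part in insulin secretion, and mice whose pancreas lacks Arntl develop glucose intolerance.

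Motifs of this loop lie close to the transcription start of several of the genes. RefSeq promoter windows on GRCm38.p6, which run from 250 bases before a start to 50 bases after it, were found for 9 of the 10 genes. The E-box CACGTG, which reads the same on both strands, occurred in the windows of Per1 and Cry1. The D-box, the site of DBP and its relatives, was searched for on both strands as TTATGTAA and TTATGCAA, and Per3 held 2 copies of the first and Per1 held 1 copy of the second. The core of the element bound by ROR and REV-ERB proteins, searched for on both strands as TAGGTCA, occurred in 1 of the 2 windows of Arntl, starting 30 bases after the start. Ciart, a CLOCK and ARNTL repressor that is no member of the 10 genes, held 3 E-boxes. These sequences are shown because they hold the motifs through which the loop is known to act, with the E-box, D-box or RORE core in capitals. The first 250 bases of the windows of Per1 (chr11:69098699-69098948, plus strand), Per3 (chr4:151044666-151044915, minus strand), Cry1 (chr10:85185055-85185304, minus strand) and Ciart (chr3:95882229-95882478, minus strand) and 30 bases around the core in Arntl (chr7:113207529-113207558, plus strand) read as follows.
Per1: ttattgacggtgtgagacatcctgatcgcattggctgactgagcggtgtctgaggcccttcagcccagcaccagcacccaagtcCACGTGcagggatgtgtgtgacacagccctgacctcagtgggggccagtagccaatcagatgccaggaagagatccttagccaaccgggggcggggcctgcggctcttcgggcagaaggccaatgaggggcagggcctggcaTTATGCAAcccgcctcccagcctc
Per3: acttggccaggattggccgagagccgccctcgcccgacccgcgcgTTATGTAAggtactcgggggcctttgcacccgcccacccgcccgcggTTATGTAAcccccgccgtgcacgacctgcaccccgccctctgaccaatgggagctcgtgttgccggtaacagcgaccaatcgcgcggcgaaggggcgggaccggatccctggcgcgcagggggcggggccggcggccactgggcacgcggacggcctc
Cry1: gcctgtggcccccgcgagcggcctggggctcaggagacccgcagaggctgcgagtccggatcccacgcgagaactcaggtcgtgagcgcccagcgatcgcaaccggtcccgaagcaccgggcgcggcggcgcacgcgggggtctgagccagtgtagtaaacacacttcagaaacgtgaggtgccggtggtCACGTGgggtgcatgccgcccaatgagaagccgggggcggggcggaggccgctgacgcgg
Ciart: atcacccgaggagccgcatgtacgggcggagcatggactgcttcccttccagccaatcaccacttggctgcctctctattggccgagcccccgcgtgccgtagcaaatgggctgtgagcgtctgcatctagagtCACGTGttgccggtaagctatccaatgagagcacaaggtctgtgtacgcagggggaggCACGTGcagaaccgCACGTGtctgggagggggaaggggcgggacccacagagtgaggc
Arntl: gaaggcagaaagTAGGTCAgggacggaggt

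Of all 27025 genes with a window, 8.09% held the E-box, 1.11% the first D-box, 0.888% the second and 2.97% the RORE core. Among the 10 clock genes and 15 further genes of the loop, 21 had a window and 6 of these held the E-box, namely Per1, Cry1, Ciart, Bhlhe41, Cipc and Tef. The cAMP response element TGACGTCA was in the windows of 2.03% of genes and in none of those of the clock genes. A match describes letters in these windows and does not show that a protein binds there. The motifs were selected after the windows had been seen.

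All 10 clock genes were detected in both libraries, with 109 to 2904 counts in the control-F2 library of 16285888 counts and 193 to 3402 in the AE-F2 library of 21278513 counts. Each gene's counts were divided by the library size after TMM scaling, which gives counts per 1000000 counts (CPM), and by the length of its annotated exons, so that levels can be set side by side between genes. Per kb of exon, Cry2 had the highest level in the control-F2 library with 28.2 CPM per kb, followed by Nr1d2 with 27.9 and Nr1d1 with 27.2, and the counting intervals of these levels overlapped. Per1 (12.2 CPM per kb), Clock (9.48), Dbp (9.31) and Per2 (6.46) held the middle, with overlapping intervals for Clock and Dbp. Cry1 (2.72), Per3 (1.85) and Arntl (0.889) had the lowest levels per kb in the control-F2 library. The order from highest to lowest was the same in the AE-F2 library, from Cry2 at 25.3 CPM per kb to Arntl at 1.21. There Cry2 and Nr1d2 (24.8), and Per1 (9.46) and Clock (9.33) had overlapping intervals in each pair, as did Per3 (1.51) and Arntl. These levels use the union of all annotated exons, so a gene whose islet transcripts are shorter than its union is understated.

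**Figure D1:**
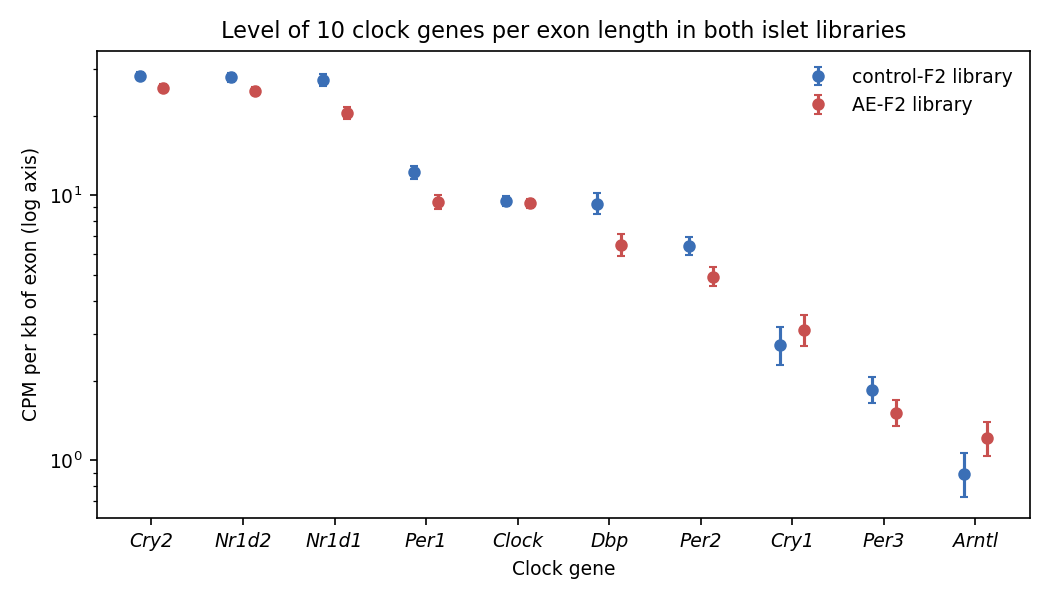
Level of each clock gene in CPM per kb of exon (vertical log axis) in the control-F2 library (blue) and the AE-F2 library (red), ordered by the control-F2 level, with bars for the 95% Poisson interval of the count. The order is the same in both libraries, and Arntl and Cry1 are the genes whose red point lies above the blue one.

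Between the libraries, 8 of the 10 clock genes had the lower level in the AE-F2 library and 2, Arntl and Cry1, were higher. The differences were modest, from a log2 ratio of -0.52 for Dbp to 0.44 for Arntl, with a median of -0.23. No clock gene reached 1.5-fold or 2-fold in either direction. Of the 13627 genes that averaged 10 counts or more, the tested genes, 8.23% were at least 1.5-fold apart and 3.81% at least 2-fold, but for the 10540 better covered genes, those averaging 100 counts or more, to which every clock gene belongs, 1.56% were at least 1.5-fold apart. Across all 13627 genes 6808 were lower and 6819 higher, and the median log2 ratio was 0.00. For 7 clock genes the 95% Clopper-Pearson interval on the ratio lay below equality and for 1, Arntl, it lay above. In all tested genes the interval lay below equality for 13.4% and above it for 13.4%, and in the better covered genes for 16.1% and 12.2%. These intervals cover counting error only, and may understate even that, since PCR copies are not independent molecules. With only 1 library per group analysed, no ratio has a replicate check, so the values compare these libraries. In them the group cannot be told apart from the animal, the preparation or the hour of collection. In bulk islets, fewer cells of a type and less RNA per cell cannot be told apart either.

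**Figure D2:**
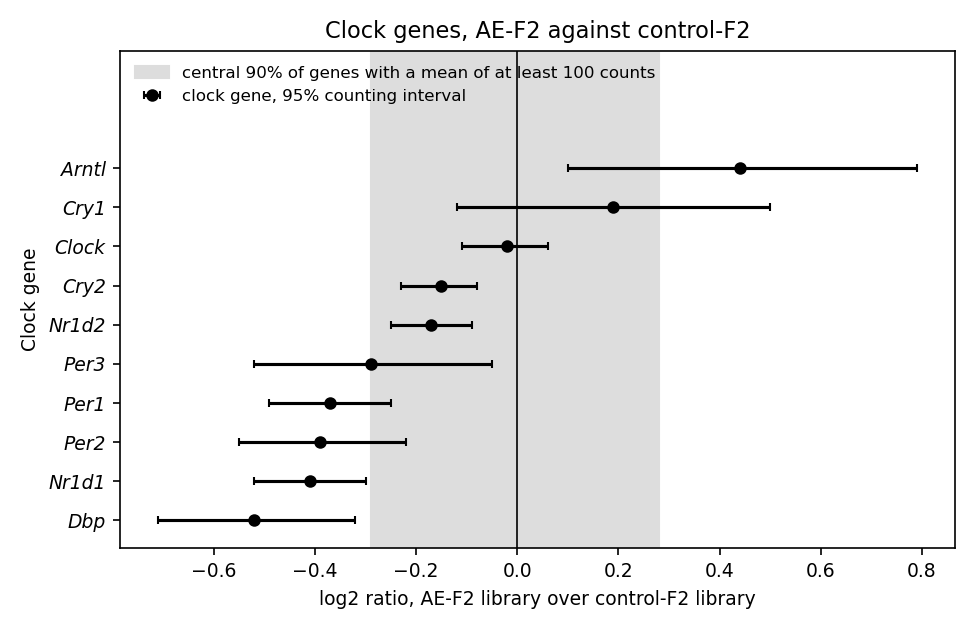
log2 ratio of the AE-F2 over the control-F2 library (horizontal axis) for each clock gene (points) with its 95% counting interval (bars). The grey band holds the central 90% of the 10540 genes averaging 100 counts or more, from -0.29 to 0.28. Dbp, Nr1d1, Per2 and Per1 lie to its left, Per3 on its edge and Arntl to its right. Over all 13627 tested genes the central 90% ran from -0.38 to 0.67, which also holds Per1, Per3 and Arntl.

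The activators took different values. Arntl (ENSMUSG00000055116) had 109 counts (6.69 CPM) in the control-F2 sample and 193 counts (9.09 CPM) in the AE-F2 library. Its log2 ratio of 0.44 had an interval from 0.10 to 0.79, a level 35.6% higher. Of the better covered genes, 1.83% were as high or higher in ratio. Arntl averaged 151 counts, however, and the central 90% of all tested genes, from -0.38 to 0.67, held its log2 ratio. Clock (ENSMUSG00000029238), the partner of ARNTL, had 130 CPM in the control-F2 sample and 128 in that of AE-F2. The log2 ratio of Clock was -0.02 with an interval from -0.11 to 0.06 at 2122 and 2720 counts, so that no difference was detectable at this depth. The number of Arntl counts per Clock count went from 0.0514 to 0.071, a log2 change of 0.47 (0.12 to 0.81). Thus the libraries differed beyond counting error in Arntl and not detectably in its partner. The pairs Arntl with Clock, Per1 with Per2 and Nr1d1 with Nr1d2 were set side by side after their values had been seen.

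The Per repressors were all on the lower side in AE-F2. Per1 (ENSMUSG00000020893), the family member that also responds quickly to cAMP and glucocorticoid signals, had 68.7 CPM in the control-F2 sample and 53.2 CPM in that of AE-F2 (1120 and 1131 counts), a log2 ratio of -0.37 (interval -0.49 to -0.25). Per2 (ENSMUSG00000055866) had 37.9 and 29 CPM (617 and 615 counts), a log2 ratio of -0.39 (-0.55 to -0.22). Per3 (ENSMUSG00000028957), the least abundant of the family, had 17.7 and 14.5 CPM (289 and 309 counts), a log2 ratio of -0.29 (-0.52 to -0.05). Per1 and Per2 kept their proportion, with 1.82 Per1 counts per Per2 count in the control-F2 sample and 1.84 in that of AE-F2. As low a ratio as that of Per1 was found for 2.69% of the better covered genes, for Per2 2.26% and for Per3 5.37%.

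The cryptochromes, which join PER proteins to block ARNTL and CLOCK, diverged. Cry1 (ENSMUSG00000020038) had 148 counts (9.08 CPM) in the control-F2 sample and 220 counts (10.4 CPM) in the AE-F2 library, and its log2 ratio of 0.19 had an interval that included equality (-0.12 to 0.50). Cry2 (ENSMUSG00000068742) had 178 and 160 CPM (2904 and 3402 counts), a log2 ratio of -0.15 (-0.23 to -0.08). The number of Cry1 counts per Cry2 count was 0.051 in the control-F2 sample and 0.0647 in that of AE-F2, a log2 change of 0.34 whose interval (0.03 to 0.65) lay above equality. Cry2 is therefore among the lower genes, but its ratio lies inside the central 90% of genes at this level.

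The REV-ERB genes and Dbp were likewise lower. Nr1d1 (ENSMUSG00000020889), which encodes REV-ERBα, had 83.7 CPM in the control-F2 sample and 63 CPM in that of AE-F2 (1364 and 1338 counts), a log2 ratio of -0.41 (-0.52 to -0.30). Nr1d2 (ENSMUSG00000021775), which encodes REV-ERBβ, had 151 and 134 CPM (2462 and 2846 counts), a log2 ratio of -0.17 (-0.25 to -0.09). Nr1d1 was lower by more than its paralog, with 0.554 Nr1d1 counts per Nr1d2 count in the control-F2 sample and 0.47 in that of AE-F2, a log2 change of -0.24 (-0.37 to -0.10). Dbp (ENSMUSG00000059824), a transcription factor driven directly by ARNTL and CLOCK through E-boxes, had 454 counts (27.9 CPM) and 413 counts (19.4 CPM). Its log2 ratio of -0.52 (-0.71 to -0.32), a level 30.2% lower, was the lowest of the 10, and 0.92% of the better covered genes were as low.

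Nr1d1 and Dbp are also the clock genes with fractional deposited counts, which an estimator gives where a read can belong to more than 1 gene. In GENCODE M21, 263 exon bases of Nr1d1 (8.55% of its exons) overlap Thra on the opposite strand, and 539 exon bases of Dbp (18%) overlap Sphk2. The sources used here do not state that strand was used in counting, and reads from such overlaps cannot then be told apart. Thra, a thyroid hormone receptor gene, had 50.6 CPM in the control-F2 sample and 46.9 in that of AE-F2, with an interval on the log2 ratio from -0.24 to 0.03. Sphk2, a sphingosine kinase gene, had 51.6 and 51.9 CPM (-0.12 to 0.14). Both intervals included equality, but these values rest on the same assignment of reads, and the part of the overlaps in the Nr1d1 and Dbp values was not tested. Cry2 shares 4.67% of its exon bases with D930015M05Rik and Arntl 0.439% with Gm45355, both on the opposite strand.

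By their known phase, the 6 genes of the light phase and early dark phase (Dbp, Nr1d1, Nr1d2, Per1, Per2, Per3) were all lower in the AE-F2 library, with a median log2 ratio of -0.38. Of the 3 genes set against them (Arntl, Clock, Cry1), 2 were higher and Clock was at -0.02, with a median of 0.19. That median is the log2 ratio of Cry1, whose interval included equality (-0.12 to 0.50). The summed counts of the 3 genes, most of them from Clock, had a log2 ratio of 0.02 (-0.06 to 0.09). Cry2 (-0.15) was placed on neither side, and Clock was kept with Arntl although its transcript is known to vary little. The first median minus the second was -0.57 (no interval computed), a quantity that does not depend on how the libraries were scaled. The same holds for counts of one gene per count of another within a library. Per Dbp count there were 0.24 Arntl counts in the control-F2 sample and 0.467 in that of AE-F2, 1.95-fold apart (log2 change 0.96, interval 0.57 to 1.35). Per Nr1d1 count the Arntl counts went from 0.0799 to 0.144 (1.81-fold, log2 change 0.85, interval 0.50 to 1.21). The differences against Per2 (1.78-fold), Per1 (1.75-fold), Per3 (1.66-fold) and Nr1d2 (1.53-fold) were smaller, and each of the 6 intervals lay above equality. The 6 ratios share the Arntl counts, the sparsest of the 10 genes, and are not independent of each other. The hour of collection may differ between the libraries, and its part in these values cannot be told apart from the group.

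**Figure D3:**
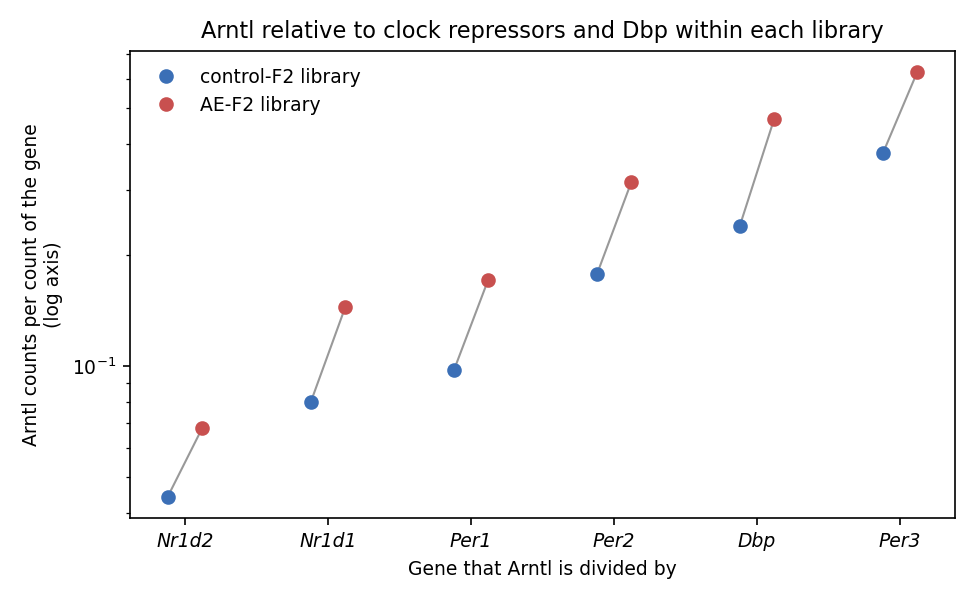
Arntl counts per count of Nr1d2, Nr1d1, Per1, Per2, Dbp and Per3 (vertical log axis) in the control-F2 library (blue) and the AE-F2 library (red), joined by a grey line for each gene. In all 6 pairs the AE-F2 point is higher, by 1.53-fold to 1.95-fold.

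The remaining genes of the loop lay mostly on the same side as these genes. Of 15 listed, 14 averaged 10 counts or more, Rorb being at 3 and 4 counts, and 11 of the 14 were lower in the AE-F2 library, with a median log2 ratio of -0.18. The interval lay below equality for 7 of the 14 and above it for 2, beside 13.4% each way over all tested genes, so the count above lies near that background. All 4 E-box repressors were lower with an interval below equality. Ciart, which inhibits ARNTL and CLOCK and whose 3 E-boxes are shown above, had 65 counts (3.99 CPM) in the control-F2 sample and 33 (1.55 CPM) in that of AE-F2. Its log2 ratio of -1.35 (-2.01 to -0.73) was the largest difference among the loop genes, and the sparse counts give it a wide interval. Bhlhe40 (DEC1) had 29.1 and 21.3 CPM (log2 ratio -0.45, interval -0.64 to -0.26), Bhlhe41 (DEC2) 60.5 and 54.8 CPM (-0.14) and Cipc 38.3 and 34.1 CPM (-0.17).

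Tef and Hlf, the PAR bZIP relatives of Dbp, were lower as Dbp was. Tef had 92.8 CPM in the control-F2 sample and 75.6 in that of AE-F2 (log2 ratio -0.30, interval -0.40 to -0.19), and Hlf 11.8 and 9.37 CPM (-0.34, -0.63 to -0.04). Nfil3 (E4BP4) competes with them for D-boxes and is known to peak when they are low. It was nonetheless lower in the AE-F2 library, with 258 counts against 196, which is 15.8 CPM against 9.23 (log2 ratio -0.78, -1.05 to -0.50). Npas2, a paralog of Clock known to run with Arntl, had 34 and 36 counts, with an interval on its log2 ratio from -1.02 to 0.42, and Arntl2 had 20 and 44 counts (0.74, -0.04 to 1.60). The ROR activator gene Rora (58.6 and 55.3 CPM) had an interval that included equality. Thus Nfil3 did not take the direction of Arntl, and Npas2 was too sparse to place.

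Of the other partners, Nono (176 and 200 CPM, log2 ratio 0.18, interval 0.11 to 0.25) and Tipin (11.8 and 16.1 CPM, 0.44, 0.18 to 0.70) were higher in the AE-F2 library. Timeless, with 60 and 70 counts, had an interval from -0.68 to 0.36.

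The 21 kinase, ubiquitin ligase and deubiquitinase genes that set the lifetime of clock proteins differed little, with a median log2 ratio of -0.03, 12 lower and 9 higher and none past 1.5-fold. The interval lay below equality for 5 and above it for 3 of the 21, beside 16.1% and 12.2% of the better covered genes, to which all 21 belong, and these counts lie near that background. Csnk1d, a casein kinase that phosphorylates PER proteins, had 128 CPM in the control-F2 sample and 134 in that of AE-F2, with an interval on its log2 ratio from -0.01 to 0.15. Csnk1a1 (416 and 387 CPM, log2 ratio -0.10) and Huwe1 (347 and 317 CPM, -0.13) were slightly lower and Usp7 (111 and 124 CPM, 0.16) slightly higher, each with an interval beyond equality. The extremes were Siah2 (37.5 and 28.4 CPM, -0.40), a ubiquitin ligase gene that acts on REV-ERBα, and Fbxw7 (27.2 and 33.2 CPM, 0.29), and both were picked after their values had been seen.

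Transcripts known to cycle in many mouse organs did not share one direction. Of 13 listed, which include Tef, Hlf, Ciart, Bhlhe41 and Npas2 of the loop, 7 were lower and 6 higher, with a median log2 ratio of -0.03. The list mixes genes of unlike known phase, such as Npas2 and Usp2, so its median cannot measure a difference in phase. The interval lay below equality for 4, all of them loop genes, and above it for 2, beside 13.4% each way over all tested genes, so the count above lies near the background. The 2 were Wee1 (10.1 and 12.9 CPM, log2 ratio 0.36), a cell cycle kinase under E-box control, and Noct (207 and 221 CPM, 0.09), a rhythmic phosphatase. Usp2 (5.34 and 6.31 CPM, log2 ratio 0.24, interval -0.16 to 0.65), which is known to cycle in phase with Dbp, and Tsc22d3 (21.5 and 22.9 CPM, 0.09, -0.11 to 0.29) had the higher value in AE-F2 with intervals that included equality. Por and Nampt were each at -0.03. Wee1 and Usp2 were selected for mention after their values had been seen, as was Tsc22d3.

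**Figure D4:**
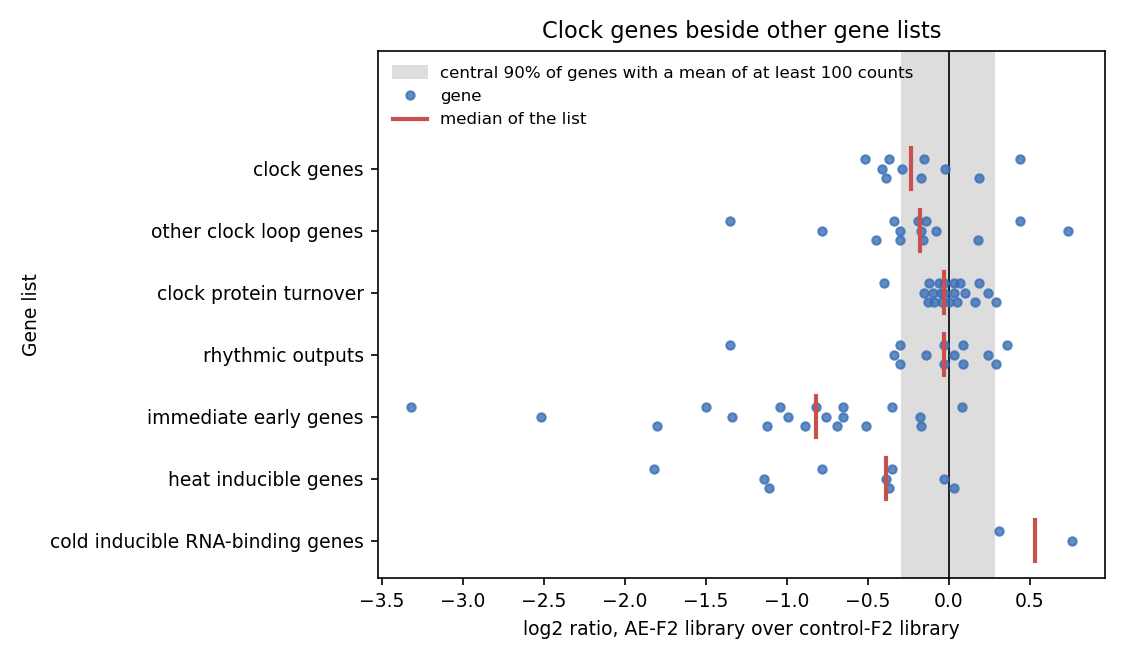
log2 ratio of the AE-F2 over the control-F2 library (horizontal axis) for the genes of 7 lists that averaged 10 counts or more (blue points) and the median of each list (red bars). The grey band holds the central 90% of the genes averaging 100 counts or more. The clock and loop genes lie mostly left of equality, the turnover genes around it, and the immediate early genes farther left, with a median of -0.82.

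Other gene groups that share inducers with Per1 and Per2 were lower in median as well. Immediate early genes, induced within minutes by activity or stress, had a median log2 ratio of -0.82 over 19 genes, 18 of them lower, and a summed level of 5187 CPM in the control-F2 sample and 2706 in that of AE-F2. Fos had 1142 and 575 CPM (log2 ratio -0.99). The number of Per1 counts per Fos count was 0.0602 in the control-F2 sample and 0.0926 in that of AE-F2, so that Per1 was lower by less than Fos (log2 change 0.62, interval 0.50 to 0.75). Of 10 cAMP and CREB inducible genes, a list that shares Per1, Fos, Junb and Nr4a1 with others named here, 9 averaged 10 counts or more and 8 were lower, with a median of -0.57. Heat inducible genes, which share the regulator HSF1 with Per2, had a median of -0.39, with 8 of 9 lower and summed levels of 4284 and 2748 CPM. Their log2 ratios ran from -1.82 (Dnajb1) to 0.03, and Hspa8, the most abundant by mean count, had 1481 and 1163 CPM (-0.35). The log2 change of Per2 counts per Hspa8 count was -0.04 (interval -0.20 to 0.13), whereas Dnajb1 was lower by more than Per2. The comparisons with Fos, Hspa8 and Dnajb1 were picked after the values had been seen, and the part of these inducers in the Per1 and Per2 values was not tested.

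The libraries carried the markers of islets, and some markers of other cell types differed between them. Ins1 and Ins2, the mouse insulin genes, took 17.7% of counts in the control-F2 sample and 17.5% in that of AE-F2, and the 10 β-cell markers summed to 203260 and 203626 CPM. Of these, 8 were lower in AE-F2 and 2 higher, with log2 ratios from -0.28 to 0.23 and a median of -0.10. Each interval lay beyond equality, beside 16.1% below and 12.2% above for the better covered genes, but at mean counts of 3825 to 2362316 the intervals are narrow enough to do so at a log2 ratio of -0.05 (Ins2). The 5 α-cell markers were all higher in the AE-F2 library, with sums of 17530 and 23706 CPM. The δ-cell markers summed to 2900 and 2886 CPM and the PP-cell markers to 3188 and 3259 CPM. The 10 acinar markers summed to 2107 and 1572 CPM, and all 9 that averaged 10 counts or more were lower. The 9 lymphocyte markers summed to 15.5 and 388 CPM, with Cd3d and Cd3e at 0 in the control-F2 library, and the 7 mesenchymal markers to 69.6 and 119 CPM, with 7 of 7 higher. The 5 endothelial markers summed to 675 and 670 CPM. The part of their shares in the clock gene values was not tested.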

How the data were processed

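Islet RNA of F2 males was enriched for mRNA with oligo(dT) beads and sequenced on an Illumina instrument. Each deposited file holds the estimated counts of 1 library by gene, which the authors had not scaled for depth or gene length. Their processing notes name Bowtie2, RSEM and DESeq2, whereas their methods name HISAT2 as aligner. The build and annotation of the counts are not given in the sources used here. In the control-F2 library 8.56% of the deposited counts were not whole, and in the AE-F2 library 9.28%. Totals were 16285888 and 21278513, so a gene at the same level has the smaller counting error in the AE-F2 library.

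Symbols (21806 of 21899 genes), exon lengths and GC content were taken from GENCODE M21. A symbol with several identifiers was given to the one with the most counts. Counts were rounded, genes averaging 10 counts or more were retained (13627), and libraries were scaled by TMM factors (edgeR 4.0.16, R 4.3.3). The log2 ratio used a pseudocount of 0.5 counts. Its 95% Clopper-Pearson interval was computed on the fraction of a gene's counts in AE-F2 (scipy 1.17.1), level intervals are Poisson, and count ratios between genes have intervals from the summed reciprocal counts on the log scale. Since only 1 library of each group was analysed, there was no model fit and no p-value. The code was checked on simulated libraries.

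The clock genes, the other lists and their tests were chosen with earlier results of these data known. Named genes are the 10 clock genes, the loop, turnover and output genes past 1.5-fold, and up to 4 of the most abundant genes of each role or list. Other loop and output genes are given for completeness. Some genes counted in the lists are not reported here by name. Alternatives were other scalings (DESeq2 1.42.0 among them), minimum counts, pseudocount and fold, thinning of the deeper library, and removal of GC and length trends. Promoter windows are from RefSeq (GRCm38.p6).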

Additional observations from a re-analysis of the deposited data

How the results depend on the processing

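The log2 ratios of the 10 clock genes stayed within their counting intervals, and kept their sign, under all 8 alternatives tried for them, as 80 of 80 values, and so did 21 of 21 values of the 7 count ratios of Arntl to 6 genes and of Cry1 to Cry2. The other count ratios were not recomputed. The alternative scalings and minimum counts change only a scale factor shared by all genes, so they could hardly move these values and check little. With trends in GC content and transcript length removed, Per1 moved from -0.37 to -0.27 and Dbp from -0.52 to -0.46. The number of clock genes past 2-fold was 0 under every setting, the 1.5-fold threshold included. The share of all tested genes past 2-fold was 10.4% with a minimum mean of 1 count and 0.455% with a minimum mean of 100 counts (the minimum sets how many sparse genes are tested), and 8.23% were past 1.5-fold. No replicate could be left out, since only 1 library per group was analysed. No paired analysis was possible because each group has 1 library analysed here and the numbers of these libraries differ. Depth limits Arntl and Cry1, whose intervals are the widest of the clock genes, and sparse genes of the other lists such as Ciart, Npas2, Arntl2, Timeless and Usp2.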

Other observations

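Beside the clock genes, the cold inducible RNA-binding genes Rbm3 and Cirbp, whose transcripts are known to follow daily body temperature in antiphase to heat shock genes, were higher in the AE-F2 library. Rbm3 had 521 counts (32 CPM) in the control-F2 sample and 1150 counts (54.1 CPM) in the AE-F2 library, a log2 ratio of 0.76 (interval 0.61 to 0.91). Cirbp had 50.9 and 62.9 CPM, a log2 ratio of 0.31 (0.18 to 0.43).

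Glucocorticoid targets, through which adrenal rhythm is known to reach peripheral clocks, were mostly lower in AE-F2. Of 10 listed, Per1 included, 7 were lower and 3 higher, with a median log2 ratio of -0.30, and the interval lay below equality for 6 and above it for 2, beside 13.4% each way over all tested genes. The 4 most abundant took both directions. Fkbp5 (147 and 164 CPM, log2 ratio 0.16, interval 0.08 to 0.23) was higher, whereas Dusp1, which is also an immediate early gene, was lower (245 and 96.8 CPM, -1.34) and Mt1 was lower (176 and 152 CPM, -0.21). Klf9 had 110 and 118 CPM (0.09). Besides Fkbp5 and Klf9, the gene with the higher value in AE-F2 was Tsc22d3 (0.09, interval -0.11 to 0.29). The part of glucocorticoid signals in the clock gene values was not tested.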
